A study of Mus musculus with 16 samples.

Results

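The G2/M and mitosis genes described here are 59 genes whose products build the mitotic kinases, the spindle, the kinetochore and the cytokinesis machinery. They were chosen as a list of mouse gene symbols, each of which was matched to 1 gene of the deposited table, so that 59 of its 33072 genes were members. The RNA came from 2 cultured cell lines of the BALB/c mouse strain that were derived from the same mouse mammary carcinoma and differ in behaviour, the metastatic 4T1 and the non-metastatic 67NR. Cells of both lines were seeded in DMEM with serum, and were treated for 24 h with 15 µM CIX, an inhibitor of the arachidonic acid releasing enzyme cPLA2α, or with its vehicle, DMSO. Poly(A) RNA of 4 biological replicates in each of the 4 groups was sequenced, 16 samples in all. Each degree of metastatic potential was represented by 1 cell line, so that a difference between the lines cannot be told apart from a difference in metastatic potential. The study asked what inhibition of cPLA2α does to the transcriptome of the metastatic line, and the 67NR samples allowed the same comparison in its non-metastatic counterpart.

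Samples keep the numbers of their titles, which are 3, 7, 11 and 15 for vehicle treated 4T1, 4, 8, 12 and 16 for CIX treated 4T1, 1, 5, 9 and 13 for vehicle treated 67NR, and 2, 6, 10 and 14 for CIX treated 67NR. Where 4 values are listed, they follow this order. Total estimated counts ranged from 21715700 to 29450629 per sample. Levels are given as CPM, counts per 1000000 of the TMM-scaled library. Changes are log2 fold changes of a limma-voom fit over all genes tested, and genes were taken as changed (called) where the p-value after Benjamini-Hochberg adjustment fell under 0.001, which the study used too. Of the defining epithelial markers, Epcam lay at 312 to 319 CPM in vehicle treated 4T1 cells, and Epcam, Cdh1, Krt18 and Krt19 were below 2 CPM in each 67NR sample, in which the mesenchymal genes Cdh2 (142 to 168 CPM with vehicle) and Pdgfrb (42.0 to 60.4 CPM) were expressed. Other mesenchymal genes were expressed in both lines, with vehicle Vim at 1024 to 1174 CPM in 4T1 and 4523 to 5444 CPM in 67NR, and Fn1 at 1325 to 2135 CPM in 4T1 and 1164 to 1328 CPM in 67NR. Of the 6 immune and endothelial markers, 0 passed the filter on low values in either line. With CIX, 1 of the 5 epithelial markers tested in 4T1 fell (Epcam), while 3 of the 5 estimates were above 0 and their median was 0.14, and of the 2 mesenchymal ones tested 1 rose (Vim). Their part in the results was not tested. Among the 4T1 CIX samples, sample 4 stood apart for the members, with the lowest level of the group in 46 of the 59 genes. It was the lowest in 35.0% of all genes tested. CIX sample 12 stood at the other end, with the highest level in 41 of the 59 genes, against 23.8% of all genes tested. The counts of members and list genes in 4T1 are also given without sample 4, which raised the number of members called. For the other samples, fits without them are given for the members only.

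Entry into mitosis is driven by CDK1 bound to cyclin B or cyclin A, which the CDC25 phosphatases activate and which Polo-like and Aurora kinases assist. The spindle checkpoint holds the anaphase-promoting complex until every chromosome is attached to the spindle, after which the sister chromatids separate and the cell divides. The transcripts of these proteins are made in waves, low in G1 and highest in G2 and mitosis, under the control of B-MYB, FOXM1 and the MuvB core, which act through a short promoter element called the CHR (cell cycle genes homology region). In RNA of a whole culture, a change in the share of cells in G2 and mitosis and a change in the amount of mRNA per cell cannot be told apart.

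In 4T1 cells the G2/M and mitosis genes leaned upward with CIX. Of the 59 members 13 rose and 0 fell, where 5.34% of the 11664 genes tested rose and 3.98% fell. Their median log2 fold change was 0.55 (quartiles 0.30 and 0.85), beside -0.0068 over all genes tested, and 55 of the 59 estimates were above 0. Among the members with an estimate below 0, 0 reached an unadjusted p below 0.05 by limma-voom, edgeR or DESeq2. At an adjusted p below 0.05, 40 members were higher with CIX, where 21.9% of all genes were. In 35 members every CIX sample lay above every vehicle sample, which held for 21.2% of all genes tested. The members that rose were Iqgap3 (2.06), Pbk (1.70), Cdc25b (1.49), Bub1b (1.38), Kif2c (1.34), Troap (1.26), Birc5 (1.22), Plk1 (1.20), Cdc25c (1.13), Ccna2 (1.11), Cenpf (1.03), Aurkb (0.94) and Foxm1 (0.83). Without CIX sample 4, 43 members were higher at an adjusted p below 0.05 (22.6% of all genes) and 47 had every CIX sample above every vehicle sample (26.6%). The number called depended on single samples. Without CIX sample 4, 21 members rose, and it was 5 without vehicle sample 7, vehicle sample 15, CIX sample 8 or CIX sample 16, 7 without CIX sample 12, 8 without vehicle sample 11 and 9 without vehicle sample 3. Calls over all genes, 1087 with all samples, fell in the same fits, to 975 without CIX sample 4, to 269 to 408 in the fits with 5 members and to 481, 589 and 723 in the other 3. Iqgap3, Pbk, Cdc25b, Kif2c and Birc5 kept their calls in all 8 fits, Plk1 in 4, Ccna2 in 3, Bub1b, Troap and Foxm1 in 2, and Cdc25c, Aurkb and Cenpf in 1. The median stayed between 0.48 and 0.67 in these 8 fits.

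In 67NR cells the members leaned in the opposite direction. By limma-voom 0 members rose and 0 fell, in a comparison that called 0.182% of the 11566 genes tested as higher and 0.208% as lower. The median log2 fold change of the members was -0.42 (quartiles -0.58 and -0.34), beside -0.0063 over all genes tested, and 57 of the 59 estimates were below 0. At an unadjusted p below 0.05, 50 members were lower, where 16.9% of all genes were, and 0 were higher, where 16.0% were. At an adjusted p below 0.05, 38 members were lower (9.26% of all genes) and 0 higher. edgeR called 0 members, and DESeq2 called 24 as lower, where it called 4.64% of all genes as lower. In 38 members every CIX sample lay below every vehicle sample, which held for 10.6% of all genes tested. With any 1 of the 8 samples removed the median lay between -0.48 and -0.36. The number called says nothing about stability there, since 5 of these 8 fits called 0 of all genes by limma-voom.

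**Figure D1:**
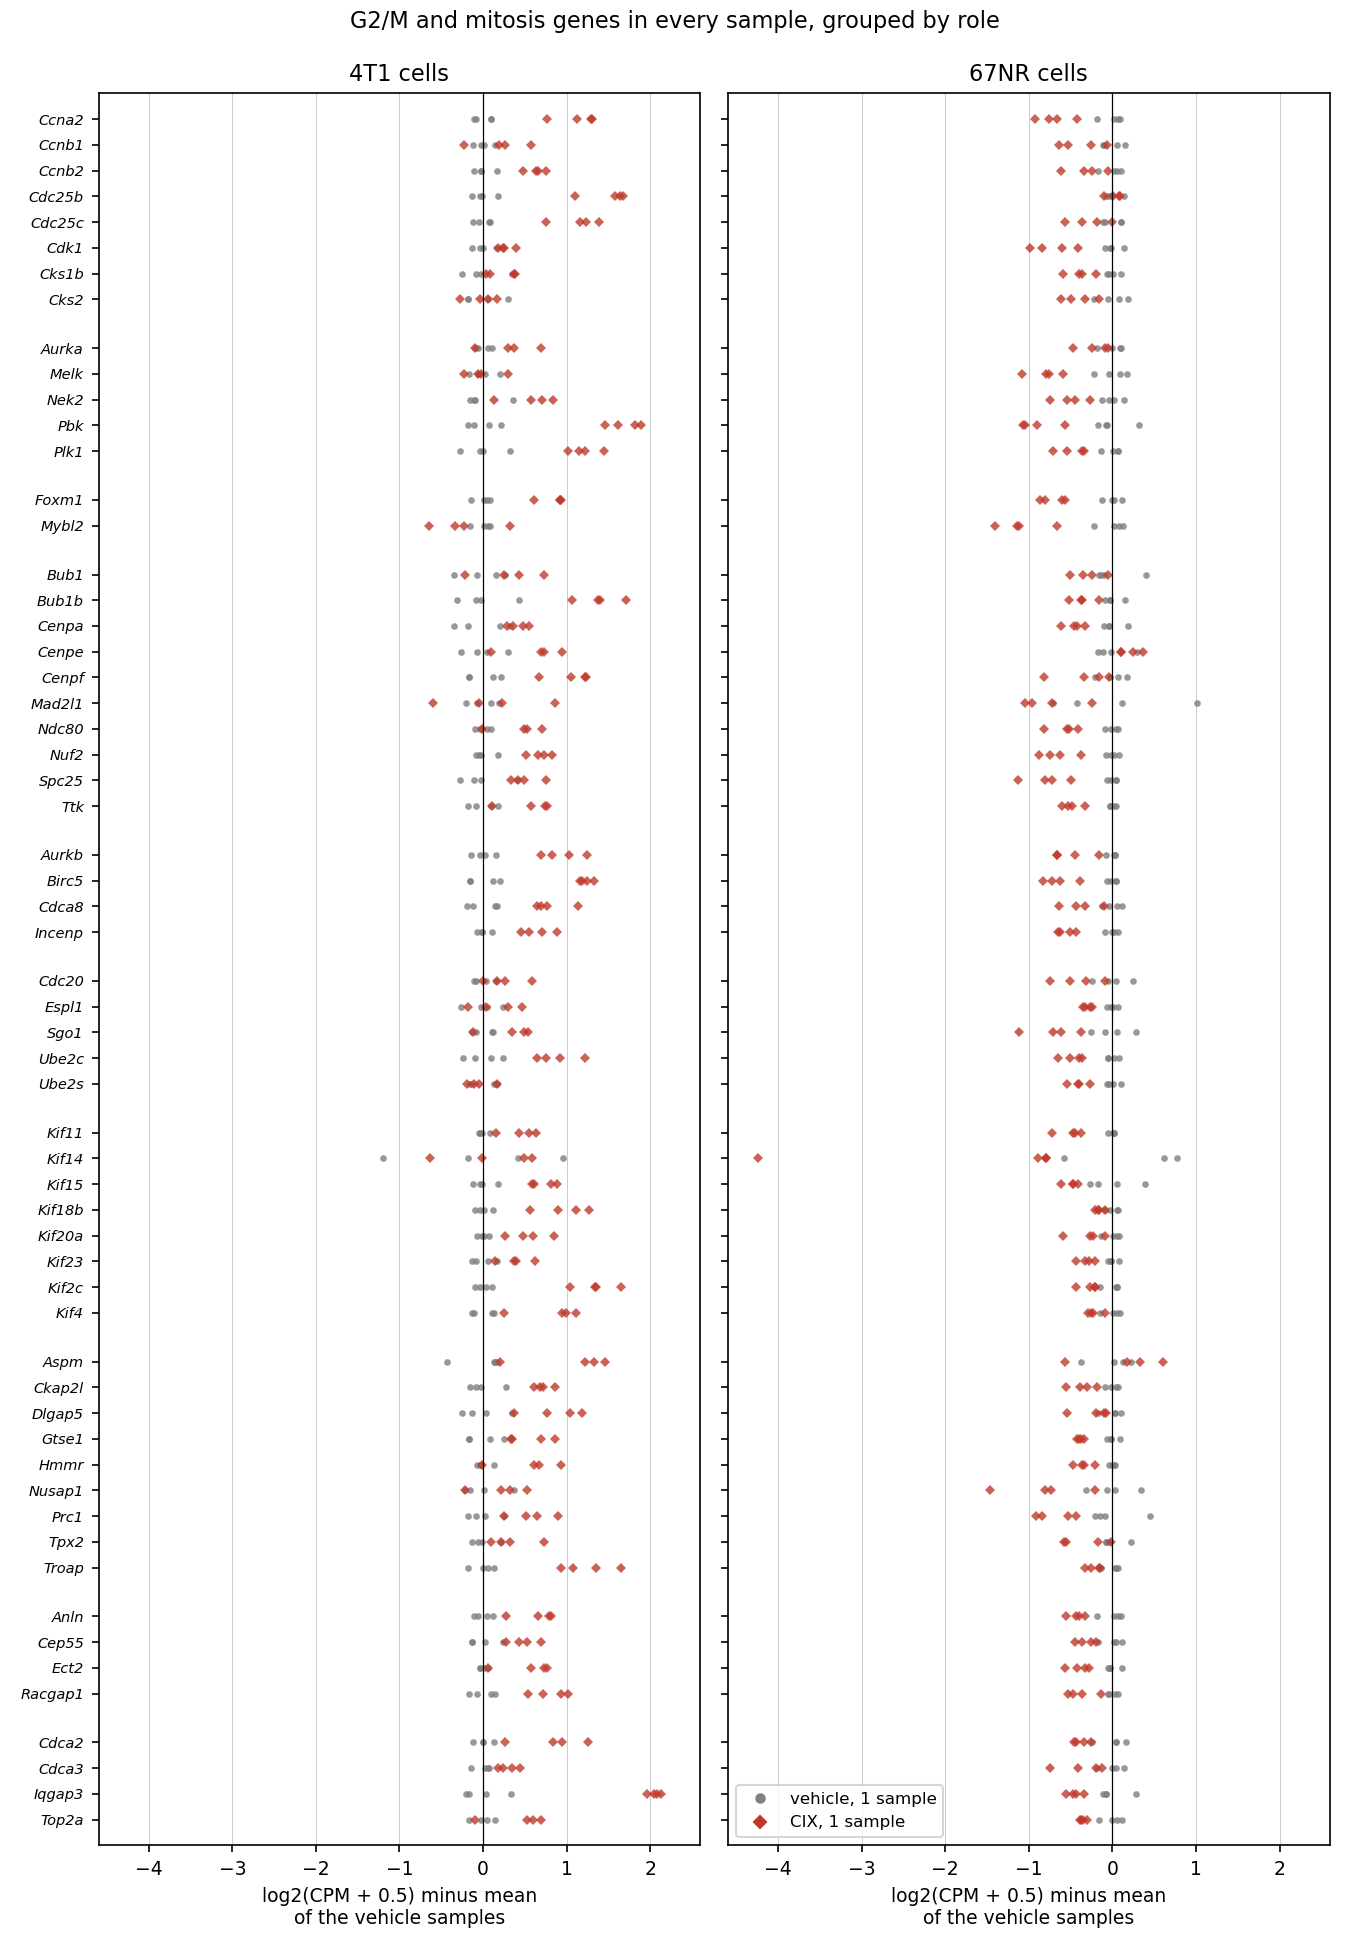
Level of each of the 59 genes in each sample, as log2(CPM + 0.5) minus the mean of the vehicle samples of the same line (x axis, log2 units), with 1 row per gene, grouped by role in the order kinase complex, mitotic kinases, transcription factors, checkpoint and kinetochore, passenger complex, anaphase-promoting complex partners, kinesins, spindle factors, cytokinesis, and chromatin and other. Grey circles are vehicle samples and red diamonds CIX samples, 4 of each, and the red points lie to the right of the grey ones in most rows for 4T1 and to the left for 67NR.

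Tested directly, the response to CIX differed between the lines in 30 members, in each of them in the same direction, higher in 4T1 than in 67NR. Of the 12613 genes tested 4.80% had such a difference. The median difference of the log2 fold changes (4T1 minus 67NR) was 1.04, beside -0.019 over all genes, the estimate was above 0 in all 59 members, and 54 had a 95% interval above 0. By limma-voom, edgeR and DESeq2, 0 members differed in the other direction, also at an unadjusted p below 0.05. The 13 members that rose in 4T1 cells were all among the 30. Without CIX sample 4 of 4T1 the number was 41 (4.98% of all genes), and over the 16 fits that left out 1 sample it ranged from 24 to 41. Calls over all genes in either direction, 992 with all samples, ranged from 654 to 1050 in these fits. In 24 members the CIX samples lay above all vehicle samples in 4T1 and below all vehicle samples in 67NR, which held for 1.79% of the 10617 genes tested in both lines. Without CIX sample 4 of 4T1 it was 32 members and 2.16% of the genes. As a share of all estimated counts, the members together took 0.688% to 0.712% in vehicle treated 4T1, 0.823% in CIX sample 4 and 1.02% to 1.17% in the other CIX samples of 4T1. In 67NR the share was 0.638% to 0.656% with vehicle and 0.416% to 0.502% with CIX, and the groups did not overlap in either line.

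**Figure D2:**
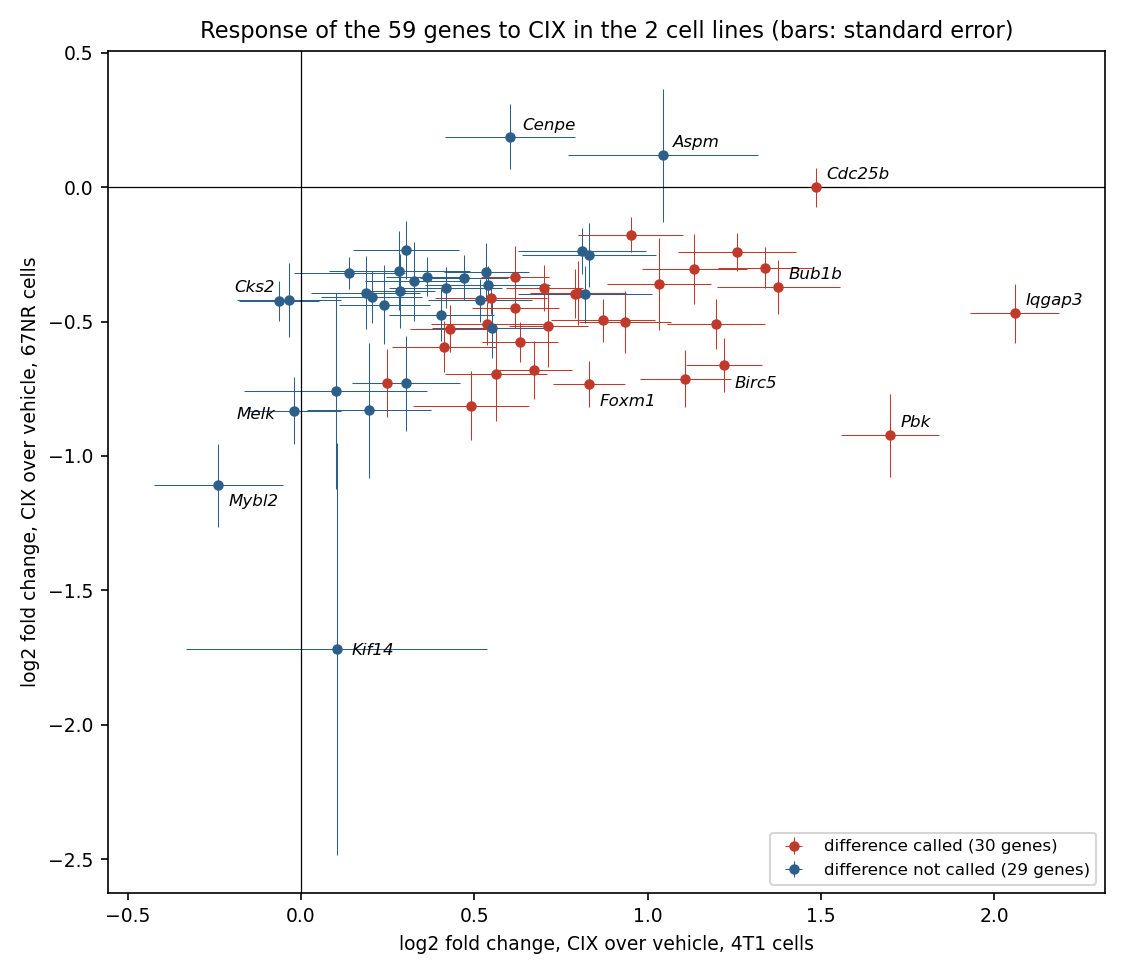
Log2 fold change of CIX over vehicle in 4T1 (x axis) and in 67NR cells (y axis) for each of the 59 genes, with standard errors as bars. Red marks the 30 genes whose response differed between the lines at an adjusted p below 0.001, and 53 genes lie to the lower right, above 0 in 4T1 and below 0 in 67NR, as did 20.8% of the 10617 genes tested in both lines.

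Among the genes of the mitotic kinase CDK1 and its partners, 8 in number, 3 rose in 4T1 and the response differed between the lines in 5. Ccnb1 (cyclin B1, chr13:100778650-100786570 of GRCm38), the cyclin that carries CDK1 into mitosis, lay at 188, 193, 211 and 175 CPM in vehicle treated 4T1 and at 163, 230.5, 286 and 218 CPM after CIX. These groups overlapped, since CIX sample 4 was below every vehicle sample, and the log2 fold change of 0.19 ± 0.16 (SE, adjusted p = 0.36) had a 95% interval of -0.17 to 0.54. The 67NR samples lay at 109, 97.5, 98.3 and 117 CPM with vehicle and at 101, 87.6, 72.6 and 67.3 CPM with CIX, a log2 fold change of -0.39 ± 0.14 (SE, adjusted p = 0.078), and the difference between the lines, 0.58 ± 0.22, did not pass either (adjusted p = 0.057). The related Ccnb2 (cyclin B2) was not called in 4T1 at 0.62 ± 0.10 (SE, adjusted p = 0.0011), although its groups did not overlap (117 to 142 CPM with vehicle, 176 to 214 CPM with CIX), and its difference between the lines was called at 0.95 ± 0.15 (SE, adjusted p = 0.00031).

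Ccna2 (cyclin A2, chr3:36564865-36572150), which works with CDK1 and CDK2 from S phase into mitosis, had the largest difference between the lines among the cyclins. It lay at 134, 118, 116 and 134 CPM in vehicle treated 4T1 and at 213, 274, 306 and 311 CPM after CIX, and rose by 1.11 ± 0.13 (SE, adjusted p = 0.00028). In 67NR cells it was at 218, 215, 209 and 181 CPM with vehicle and at 153, 129, 121 and 108 CPM with CIX, with -0.71 ± 0.11 (SE, adjusted p = 0.0036). The groups were apart in both lines, in opposite directions, and the difference was 1.82 ± 0.18 (SE, adjusted p = 5.7e-06).

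Cdk1 (chr10:69335146-69352938), the kinase itself, lay at 186, 161, 165 and 151 CPM in vehicle treated 4T1 and at 195, 187, 217 and 196 CPM after CIX, with a log2 fold change of 0.25 ± 0.09 (SE, adjusted p = 0.061). Among 67NR samples it was at 229.6, 227, 217 and 254 CPM with vehicle and at 174, 152, 129 and 117 CPM with CIX, with -0.73 ± 0.13 (SE, adjusted p = 0.0063). Neither change was called, while the difference between the lines was, at 0.97 ± 0.15 (SE, adjusted p = 0.00025), and the estimate was larger in size in 67NR than in 4T1. The small CDK-binding subunits Cks1b and Cks2 had log2 fold changes of 0.20 and -0.035 in 4T1 and of -0.41 and -0.42 in 67NR, and neither was called in any of the 3 tests of CIX.

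The members Cdc25b and Cdc25c, phosphatases that activate CDK1, rose in 4T1, while the third of the family, Cdc25a, which was not among the members, had -0.21 ± 0.12 (SE, adjusted p = 0.19). Cdc25b (chr2:131186949-131198497) lay at 75.6, 81.2, 82.5 and 93.8 CPM with vehicle and at 178, 266, 260.3 and 249 CPM with CIX, and rose by 1.49 ± 0.14 (SE, adjusted p = 0.00011). In 67NR its groups overlapped fully, at 91.1, 104, 89.7 and 93.4 CPM with vehicle and 99.4, 100.3, 87.9 and 94.4 CPM with CIX, and the 95% interval of the log2 fold change was -0.17 to 0.17. The difference between the lines was 1.48 ± 0.17 (SE, adjusted p = 1.8e-05). Cdc25c rose by 1.13 ± 0.15 (SE, adjusted p = 0.00049) in 4T1, where the vehicle samples lay at 20.1 to 23.2 CPM and the CIX samples at 37.0 to 57.7 CPM, and its difference between the lines was 1.44 ± 0.21 (SE, adjusted p = 0.00014).

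Of the 5 mitotic kinases outside these complexes 2 rose in 4T1, Plk1 and Pbk. Plk1 (Polo-like kinase 1, chr7:122159439-122169873), which acts from mitotic entry to cytokinesis, lay at 103, 68.4, 82.7 and 80.4 CPM with vehicle and at 167, 194, 226 and 184 CPM with CIX in 4T1, and rose by 1.20 ± 0.14 (SE, adjusted p = 0.00028). In 67NR it lay at 123, 123, 117 and 106 CPM with vehicle and 90.3, 91.9, 80.2 and 71.4 CPM with CIX, with -0.51 ± 0.09 (SE, adjusted p = 0.0075), and the groups did not overlap in either line. The difference of 1.70 ± 0.17 (SE, adjusted p = 8.2e-06) kept its call with any 1 of the 16 samples removed.

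Pbk (PDZ-binding kinase, chr14:65805837-65817822), a serine/threonine kinase of mitotic cells, had the largest difference between the lines of the 59 genes. It lay at 27.5, 20.7, 21.9 and 24.7 CPM in vehicle treated 4T1 and at 73.1, 84.0, 88.8 and 65.6 CPM after CIX, a rise of 1.70 ± 0.14 (SE, adjusted p = 6.7e-05). The 67NR samples lay at 38.3, 35.6, 38.0 and 49.95 CPM with vehicle and at 26.9, 21.2, 19.2 and 18.8 CPM with CIX, with -0.92 ± 0.15 (SE, adjusted p = 0.0054). The difference between the lines was 2.62 ± 0.21 (SE, adjusted p = 2e-06).

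Aurka (Aurora A, chr2:172356190-172370535), the kinase of the spindle poles, was not called in either line. It lay at 119, 129, 134 and 116 CPM with vehicle and 116, 161, 200.4 and 153 CPM with CIX in 4T1, with a log2 fold change of 0.30 ± 0.15 (SE, adjusted p = 0.14) and a 95% interval of -0.039 to 0.65. In 67NR cells it was at 54.4, 54.0, 50.5 and 44.3 CPM with vehicle and 47.6, 48.7, 42.8 and 36.4 CPM with CIX, with -0.23 ± 0.11 (SE, adjusted p = 0.17). The groups overlapped in both lines and the difference was 0.53 ± 0.20 (SE, adjusted p = 0.06). Nek2, a kinase of centrosome separation, was not called at 0.55 ± 0.17 (SE, adjusted p = 0.028) in 4T1, and Melk, a kinase of the AMPK family, had -0.019 ± 0.13 (SE, adjusted p = 0.92) in 4T1 and -0.83 ± 0.13 (SE, adjusted p = 0.0037) in 67NR.

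The transcription factors of the G2/M program were both members, and 1 of them rose in 4T1. Foxm1 (Forkhead box M1, chr6:128362967-128376146), which drives late cell cycle genes, lay at 104, 99.1, 89.4 and 102 CPM with vehicle and at 150.4, 186, 188 and 186 CPM with CIX, and rose by 0.83 ± 0.10 (SE, adjusted p = 0.00037). Among 67NR samples it was at 245, 225, 230.2 and 208 CPM with vehicle and at 153, 149, 129 and 124 CPM with CIX, with -0.73 ± 0.09 (SE, adjusted p = 0.0014). The groups were apart in both lines and the difference was 1.56 ± 0.13 (SE, adjusted p = 4.2e-06). Mybl2 (B-MYB, chr2:163054687-163084688) lay at 91.5, 94.98, 96.6 and 81.4 CPM and 114, 77.9, 71.9 and 57.9 CPM in vehicle and CIX treated 4T1. It had the lowest estimate of the members there, -0.24 ± 0.19 (SE, adjusted p = 0.33), with CIX sample 4 above all vehicle samples and the other CIX samples below them. In 67NR its log2 fold change was -1.11 ± 0.15 (SE, adjusted p = 0.0028), with 40.1 to 51.1 CPM in the vehicle and 17.4 to 29.3 CPM in the CIX samples, and its difference between the lines was 0.87 ± 0.26 (SE, adjusted p = 0.019).

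The spindle checkpoint and kinetochore genes, 10 in number, all had estimates above 0 in 4T1, where 2 rose, and the response differed between the lines in 6. Bub1b (BubR1, chr2:118598211-118641591), a subunit of the complex that inhibits CDC20, lay at 94.2, 77.1, 129.8 and 90.3 CPM with vehicle and 201, 250.1, 316 and 253 CPM with CIX in 4T1, and rose by 1.38 ± 0.18 (SE, adjusted p = 0.00041). In 67NR it lay at 73.4, 73.4, 70.6 and 83.1 CPM with vehicle and 67.3, 58.0, 57.7 and 52.3 CPM with CIX, with -0.37 ± 0.10 (SE, adjusted p = 0.033), and the difference was 1.75 ± 0.22 (SE, adjusted p = 4e-05). Cenpf, a large protein of the outer kinetochore, rose by 1.03 ± 0.15 (SE, adjusted p = 0.00071) in 4T1, where every CIX sample (146 to 216 CPM) lay above every vehicle sample (81.4 to 107 CPM).

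The checkpoint kinase Bub1, a partner of Bub1b, was not called in either line, at 0.28 ± 0.20 (SE, adjusted p = 0.29) in 4T1 and -0.31 ± 0.15 (SE, adjusted p = 0.18) in 67NR. The NDC80 complex, which holds microtubules at the kinetochore, was represented by Ndc80, Nuf2 and Spc25. Their estimates in 4T1 were 0.41, 0.67 and 0.49, none of which was called, and their differences between the lines were called at 1.00, 1.35 and 1.30 (adjusted p = 0.0009, 1.5e-05 and 0.00033). The checkpoint kinase Ttk was also called in that test, at 1.04 ± 0.19 (SE, adjusted p = 0.00077). Cenpe, the kinesin of the kinetochore, was 1 of the 2 members with an estimate above 0 in 67NR (0.19 ± 0.12 SE, adjusted p = 0.32), next to the spindle pole gene Aspm (0.12 ± 0.25 SE, adjusted p = 0.78). The checkpoint gene Mad2l1 varied most among its vehicle samples of 67NR, at 61.3, 75.01, 109 and 202 CPM, and its log2 fold change there was -0.76 ± 0.36 (SE, adjusted p = 0.18).

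All 4 genes of the chromosomal passenger complex, which corrects wrong attachments and later guides cytokinesis, differed in response between the lines. Birc5 (survivin, chr11:117849251-117855743) lay at 63.9, 49.6, 60.3 and 49.7 CPM with vehicle and at 132, 125, 139.7 and 127 CPM with CIX in 4T1, and rose by 1.22 ± 0.11 (SE, adjusted p = 9.1e-05). The 67NR samples lay at 115, 111, 107 and 116 CPM with vehicle and 85.9, 72.5, 67.5 and 62.6 CPM with CIX, with -0.66 ± 0.10 (SE, adjusted p = 0.0037). Its difference of 1.88 ± 0.14 (SE, adjusted p = 1.8e-06) was the third largest of the called ones. Aurkb (Aurora B), the kinase of the complex, rose by 0.94 ± 0.13 (SE, adjusted p = 0.00064) in 4T1, and its scaffold Incenp and the borealin gene Cdca8 had 0.63 ± 0.11 (SE, adjusted p = 0.0018) and 0.80 ± 0.14 (SE, adjusted p = 0.0018), just above the threshold. The differences between the lines were 1.43 for Aurkb, 1.20 for Incenp and 1.19 for Cdca8.

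Among the partners of the anaphase-promoting complex and the genes of sister separation, 5 in number, 0 were called in either line by limma-voom, and edgeR called 0 as well. DESeq2 called 1 as higher in 4T1 and 3 as lower in 67NR, and at an unadjusted p below 0.05 limma-voom had 1 higher in 4T1 and 5 lower in 67NR. The ubiquitin-conjugating enzyme Ube2c had the largest estimate in 4T1, 0.87 ± 0.15 (SE, adjusted p = 0.0017), with every CIX sample (185 to 275 CPM) above every vehicle sample (99.5 to 139 CPM), and was the member of this group whose response differed between the lines (1.37 ± 0.18 SE, adjusted p = 5.2e-05). The activator Cdc20 was at 0.24 ± 0.13 (SE, adjusted p = 0.17) in 4T1, and Ube2s, which extends ubiquitin chains, at -0.063 ± 0.12 (SE, adjusted p = 0.69). Separase (Espl1) and shugoshin (Sgo1), which cut and protect cohesin, were at 0.14 and 0.30 in 4T1.

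Of the 8 kinesins, motors that move along microtubules, Kif2c rose in 4T1. Kif2c (MCAK, chr4:117159639-117182639), which takes microtubule ends apart at the centromere, lay at 49.8, 45.5, 47.5 and 52.4 CPM with vehicle and at 101, 124, 155 and 125 CPM with CIX, and rose by 1.34 ± 0.14 (SE, adjusted p = 0.00014). In 67NR cells it was at 78.1, 77.5, 78.1 and 67.8 CPM with vehicle and at 64.8, 65.0, 62.6 and 55.7 CPM with CIX, with -0.30 ± 0.08 (SE, adjusted p = 0.027). The response differed between the lines in Kif2c (1.64), Kif15 (1.23), Kif18b (1.13) and Kif11 (0.95), the spindle motor that pushes the poles apart. Kif14, a motor of cytokinesis, ranged from 2.65 to 143 CPM over the 16 samples with wide overlap between groups, so that its estimate of -1.72 ± 0.76 (SE) in 67NR, the lowest of the 59, had an adjusted p of 0.16.

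The spindle assembly factors, 9 genes, had estimates above 0 throughout in 4T1. Troap (tastin, chr15:99074575-99083409), a protein of the spindle poles, lay at 26.4, 21.4, 24.1 and 25.1 CPM with vehicle and at 46.7, 62.5, 77.2 and 51.7 CPM with CIX, and rose by 1.26 ± 0.17 (SE, adjusted p = 0.00054). In 67NR its values were 47.2, 46.0, 46.3 and 41.0 CPM with vehicle and 40.3, 40.7, 35.8 and 37.7 CPM with CIX, with -0.24 ± 0.07 (SE, adjusted p = 0.046). Differences between the lines were called in Troap (1.497), the midzone bundler Prc1 (1.26), Ckap2l (1.07) and Gtse1 (0.96). Tpx2, the activator of Aurora A, was at 0.33 ± 0.14 (SE, adjusted p = 0.093) in 4T1, close to the estimate of Aurka.

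The cytokinesis genes Anln, Ect2, Racgap1 and Cep55 had estimates between 0.47 (Cep55) and 0.79 (Racgap1) in 4T1, and between -0.45 (Anln) and -0.34 (Cep55) in 67NR. By limma-voom 0 were called in either line, although each passed an adjusted p of 0.05 in both and had groups that did not overlap (DESeq2 called 2 as higher in 4T1 and 2 as lower in 67NR, edgeR 0 and 0), and Racgap1 and Anln differed between the lines at 1.19 ± 0.16 (SE, adjusted p = 6.2e-05) and 1.07 ± 0.16 (SE, adjusted p = 0.00014).

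The member that rose furthest in 4T1 was Iqgap3 (IQ motif containing GTPase activating protein 3, chr3:88081971-88121048), a scaffold of proliferating cells. It lay at 23.7, 20.2, 20.7 and 29.4 CPM with vehicle and at 97.8, 104, 91.8 and 99.8 CPM with CIX, a rise of 2.06 ± 0.13 (SE, adjusted p = 4.3e-05), and here CIX sample 4 lay among the other CIX samples. Among 67NR samples it was at 129.8, 129.8, 127 and 167 CPM with vehicle and at 93.8, 108, 98.7 and 102 CPM with CIX, with -0.47 ± 0.11 (SE, adjusted p = 0.02). The difference between the lines was 2.53 ± 0.16 (SE, adjusted p = 3.8e-07), and after CIX the samples of 4T1 overlapped those of 67NR. Top2a (topoisomerase II alpha, chr11:98992943-99024189), which untangles sister chromosomes, was the most abundant member per length in all groups. It lay at 830.3, 968, 919 and 1028 CPM with vehicle and 873, 1409.9, 1515 and 1348 CPM with CIX in 4T1, with 0.42 ± 0.16 (SE, adjusted p = 0.065) and a 95% interval of 0.05 to 0.78. In 67NR it lay at 411, 456, 475 and 494 CPM with vehicle and 352, 372, 358 and 349.7 CPM with CIX, with -0.37 ± 0.08 (SE, adjusted p = 0.012), and the difference was 0.79 ± 0.20 (SE, adjusted p = 0.0068). CIX sample 4 was again the one within the range of the vehicle samples in 4T1.

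The 9 members whose response has not yet been described were called in none of the 3 tests of CIX by limma-voom, and were the kinesins Kif4, Kif20a and Kif23, the centromeric histone Cenpa, the spindle proteins Hmmr, Dlgap5 and Nusap1, and the phosphatase regulator Cdca2 with Cdca3. Their log2 fold changes ranged from 0.20 (Nusap1) to 0.83 (Dlgap5) in 4T1 and from -0.83 (Nusap1) to -0.24 (Kif4) in 67NR, and their differences between the lines from 0.67 (Cdca3) to 1.22 (Cdca2).

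Per length, the levels of the members spanned a wide range, given here as mean TPM ± SD (n = 4). In vehicle treated 4T1 cells Top2a stood at 733 ± 85.4 TPM and Anln, the next, at 297 ± 30.5, and the median member was at 79.8 TPM. Iqgap3 was the lowest at 9.87 ± 2.14 TPM, below Gtse1 at 16.6 ± 2.74 and Aspm at 18.1 ± 3.40, of which the last 2 did not differ beyond their spread. The median member stood at 112 TPM in CIX treated 4T1, 55.4 TPM in vehicle treated 67NR and 41.7 TPM in CIX treated 67NR.

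In a summary per sample, the median over the 59 genes of the log2 level relative to the vehicle samples of the line was -0.079 to 0.032 in vehicle treated 4T1, 0.27 in CIX sample 4 and 0.66 to 0.82 in the other CIX samples. In 67NR it was -0.015 to 0.053 with vehicle and -0.59 to -0.30 with CIX. CIX sample 14 of 67NR was the lowest, and held the lowest level of its group in 45 of the 59 genes, against 23.6% of all genes tested. Within groups, the deviations of the members from the group mean were correlated with a median Pearson r of 0.45 over the 1711 pairs of genes (16 samples), which share libraries and scaling and are a description only. The list of S phase and replication genes described below had a similar median r of 0.42 over 1540 pairs. Mybl2 (r = -0.15), Iqgap3 (r = -0.12) and Kif15 (r = -0.017) did not follow the median of the other members within groups.

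**Figure D3:**
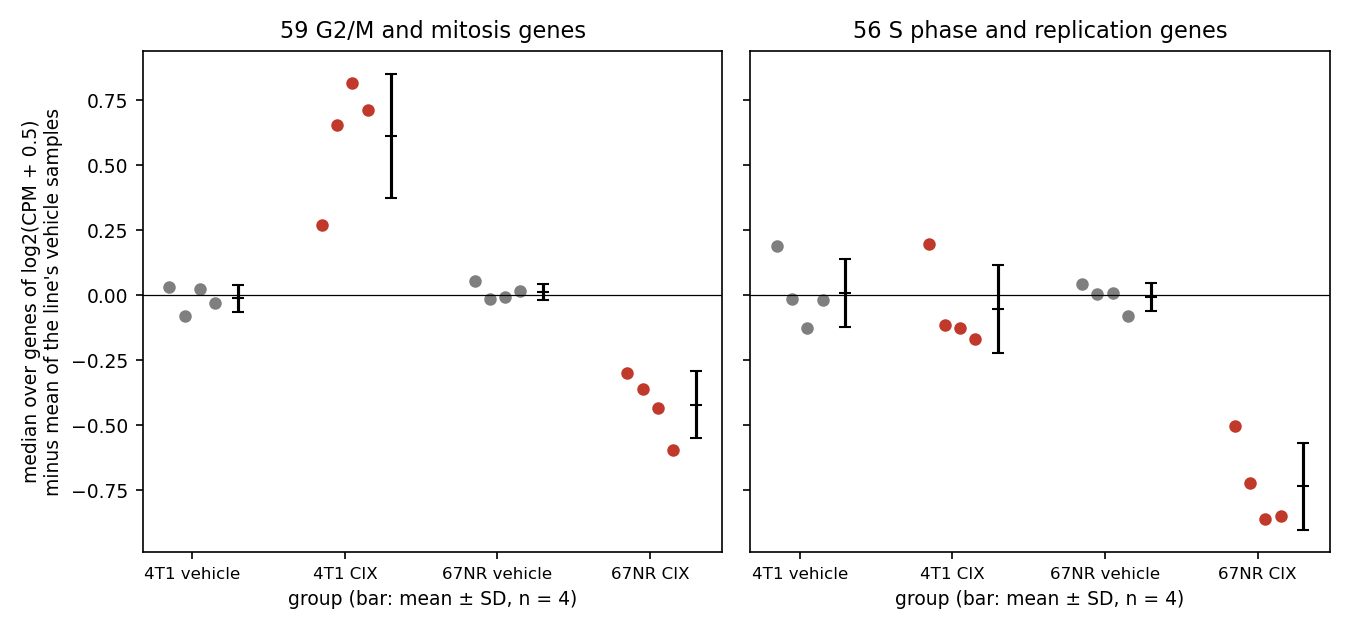
Median over genes of log2(CPM + 0.5) minus the mean of the line's vehicle samples (y axis, log2 units), 1 point per sample, for the 59 G2/M and mitosis genes (left) and for 56 S phase and replication genes (right), with mean ± SD (n = 4) per group. The left panel shows CIX treated 4T1 above and CIX treated 67NR below their vehicle samples, and the right panel shows the CIX samples of 67NR at -0.86 to -0.50 and the other groups between -0.17 and 0.20.

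In the comparison of vehicle treated cells 15 members were higher and 11 lower in 4T1 than in 67NR, where 20.4% of the 11044 genes tested were higher and 19.6% lower, so that the shares of 25.4% and 18.6% of the members lay near those of all genes. The median log2 difference of the members (4T1 over 67NR) was 0.19. Without vehicle sample 9 of 67NR the number of higher members was 9, and calls over all genes in either direction fell from 4419 to 3495.

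Higher in 4T1 were Cenpe (1.46 ± 0.15 SE, adjusted p = 2.5e-05), Bub1 (1.35 ± 0.17 SE, adjusted p = 8.4e-05), Aurka (1.28 ± 0.08 SE, adjusted p = 1.8e-06), Top2a (1.02 ± 0.09 SE, adjusted p = 1.2e-05), Nusap1 (0.98 ± 0.17 SE, adjusted p = 0.00079) and Ckap2l (0.96 ± 0.11 SE, adjusted p = 3.9e-05). Cenpe lay at 154, 191, 175 and 228 CPM in 4T1 and 62.1, 66.2, 59.6 and 82.7 CPM in 67NR, and Bub1 at 69.3, 106, 84.0 and 98.1 CPM in 4T1 and 32.0, 31.01, 45.6 and 30.5 CPM in 67NR. The spindle genes Nusap1, at 116, 137, 176 and 121 CPM in 4T1 and 70.4, 65.3, 55.1 and 87.4 CPM in 67NR, and Ckap2l, at 194, 144, 151 and 157 CPM in 4T1 and 85.4, 84.2, 81.1 and 76.6 CPM in 67NR, did not overlap between the lines either. Ccnb1 (0.85 ± 0.10 SE, adjusted p = 4.2e-05) and Mybl2 (0.95 ± 0.10 SE, adjusted p = 3.4e-05) were also higher in 4T1.

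Lower in 4T1 were Iqgap3 (-2.57 ± 0.16 SE, adjusted p = 1.1e-06), Foxm1 (-1.21 ± 0.08 SE, adjusted p = 1.7e-06), Gtse1 (-1.12 ± 0.11 SE, adjusted p = 2.3e-05), Birc5 (-1.02 ± 0.10 SE, adjusted p = 2.4e-05), Racgap1 (-0.97 ± 0.09 SE, adjusted p = 1.2e-05) and Prc1 (-0.96 ± 0.16 SE, adjusted p = 0.00066). The values given above for Iqgap3, Foxm1 and Birc5 show no overlap between the lines. Gtse1, a microtubule protein that restrains p53, lay at 39.6, 29.4, 29.3 and 35.1 CPM in 4T1 and 70.6, 76.3, 70.8 and 68.1 CPM in 67NR. Racgap1 lay at 161, 143, 167 and 134 CPM in 4T1 and 307, 285, 284 and 300.1 CPM in 67NR, and Prc1 at 167, 180.0, 225 and 192 CPM in 4T1 and 319, 345, 331 and 502 CPM in 67NR. Cdk1 (-0.50 ± 0.10 SE, adjusted p = 0.0013) and Plk1 (-0.51 ± 0.12 SE, adjusted p = 0.0052) had estimates below 0 that did not pass. These differences share the vehicle samples with the responses to CIX and are not independent of them.

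Other genes of the cell cycle were set beside the members in lists of related function. Of 40 further genes of the spindle, centrosome and cytokinesis, 8 rose and 0 fell in 4T1 by limma-voom, with a median log2 fold change of 0.47, and 14 differed in response between the lines. At an unadjusted p below 0.05 limma-voom had 23 of the 40 higher and 5 lower in 4T1, DESeq2 called 15 as higher and 1 as lower, and edgeR 8 and 0. Bod1, which helps orient chromosomes, rose from 8.06 to 15.1 CPM to 40.8 to 61.8 CPM in 4T1 (2.16 ± 0.22 SE, adjusted p = 0.00013), and Psrc1, a microtubule regulator, from 4.13 to 6.71 CPM to 14.4 to 20.4 CPM (1.74 ± 0.19 SE, adjusted p = 0.00018). Of 21 condensin and cohesin genes, 1 rose in 4T1, a share near that of all genes (5.34%), the condensin subunit Smc4 (1.53 ± 0.13 SE, adjusted p = 6.7e-05), 1 fell in 67NR, the condensin II subunit Ncapg2 (-0.73 ± 0.07 SE, adjusted p = 0.00091), and 7 differed between the lines. The outer kinetochore list (19 genes) had 1 rise, also near that share, of Nsl1 (1.51 ± 0.17 SE, adjusted p = 0.00022), and the inner kinetochore list (19 genes) 0 by limma-voom, while their medians were 0.18 and 0.061 in 4T1 and -0.46 and -0.60 in 67NR. In the inner kinetochore list limma-voom had 6 genes higher and 3 lower in 4T1 at an unadjusted p below 0.05, where 25.8% and 25.3% of all genes were, DESeq2 called 1 as higher and 1 as lower, and edgeR 0. In 67NR limma-voom and edgeR called 0 genes of either list, while at an unadjusted p below 0.05 limma-voom had 18 of the inner and 13 of the outer list lower and 0 of either higher, and DESeq2 called 12 and 8 as lower. The response differed between the lines in 6 genes of the inner and 4 of the outer list, upward in 4T1 relative to 67NR.

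Of the 16 subunits and regulators of the anaphase-promoting complex 2 rose in 4T1, the activator Fzr1 (CDH1, 0.99 ± 0.10 SE, adjusted p = 0.00016) and Cdc16 (0.71 ± 0.11 SE, adjusted p = 0.00099). Among all genes tested 5.34% rose. The estimates of this list were split, 8 above and 8 below 0, with a median of 0.021. At an unadjusted p below 0.05 limma-voom had 7 higher and 6 lower in 4T1, DESeq2 called 3 as higher and 2 as lower, and edgeR 1 and 0. Of the 11 subunits of DREAM and of the MuvB and B-MYB complex 3 rose in 4T1, among them the pocket protein genes Rbl2 (p130, 1.58 ± 0.24 SE, adjusted p = 0.00098) and Rbl1 (p107, 1.22 ± 0.16 SE, adjusted p = 0.00051), which repress cell cycle genes in resting cells. Among 18 other genes of G2/M control that were tested, Mnat1 rose (1.43 ± 0.13 SE, adjusted p = 7.9e-05) and Cdk7, its partner in the CDK-activating kinase, fell (-1.09 ± 0.12 SE, adjusted p = 0.00022). These shares were near those of all genes, 5.34% higher and 3.98% lower. In 4T1 9 estimates of this list were above and 9 below 0, with a median of -0.0076, and DESeq2 called 2 as higher and 3 as lower. The response differed between the lines in 1 gene of the anaphase-promoting complex list, 3 of the DREAM list, and 3 of the G2/M control list, of which 1 was lower in 4T1. Of all genes 4.80% were higher in 4T1 in this test, and the first of these lists was near that share. In 67NR limma-voom and edgeR called 0 genes of the spindle, the anaphase-promoting complex, the DREAM or the G2/M control list, with medians of -0.32, -0.082, -0.24 and -0.25, whereas at an unadjusted p below 0.05 limma-voom had 17, 5, 6 and 8 genes lower and 2, 0, 1 and 1 higher, and DESeq2 called 8, 3, 2 and 4 as lower and 1 of the spindle list as higher. In the G1 list 0 genes were called in 4T1 (16 tested) or 67NR (17 tested) by limma-voom. At an unadjusted p below 0.05, 2 of them were higher and 6 lower in 4T1 and 2 higher and 8 lower in 67NR, where the shares of all genes were those given above. DESeq2 called 2 as higher and 3 as lower in 4T1, 1 as higher and 4 as lower in 67NR, and edgeR 0 in either line.

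Without CIX sample 4 the numbers that rose in 4T1 were 11 in the spindle list, 2 for condensin and cohesin, 4 for the outer and 0 for the inner kinetochore, 2 for the anaphase-promoting complex, 1 for DREAM, 2 for G2/M control and 1 for G1 by limma-voom. In each of the last 2 lists 1 gene fell.

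The list nearest in function, 56 genes of S phase and DNA replication, had estimates spread around 0 in 4T1. There 1 gene rose by limma-voom, the primase subunit Prim1 (1.37 ± 0.17 SE, adjusted p = 0.00038), and 1 fell, Pcna (-0.92 ± 0.13 SE, adjusted p = 0.00056). Of all genes 5.34% rose and 3.98% fell. The median log2 fold change was -0.079. Without CIX sample 4, 1 rose and 5 fell, with a median of -0.15. In 67NR 0 rose and 2 fell, Cdc6, which loads the replicative helicase (-1.31 ± 0.13 SE, adjusted p = 0.00079), and the thymidylate synthase gene Tyms (-0.98 ± 0.09 SE, adjusted p = 0.00079), and the median was -0.75, with 55 of 56 estimates below 0. DESeq2 called 44 of the 56 as lower and 0 as higher in 67NR, where it called 4.64% of all genes as lower. In 4T1 it called 10 as higher and 6 as lower, with 3095 of all 11664 genes called in either direction. At an unadjusted p below 0.05 limma-voom had 13 higher and 14 lower in 4T1, where 25.8% and 25.3% of all genes were. By limma-voom the response differed between the lines in 12 of the 56 genes, upward in 4T1 relative to 67NR, with a median of 0.60. Per sample, the median of this list was higher in vehicle sample 3 (0.19) and CIX sample 4 (0.20) than in the other 4T1 samples (-0.17 to -0.015).

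Of the usual proliferation markers, Mki67 (Ki-67) lay at 212, 222, 201 and 301 CPM with vehicle and 276, 534, 489.7 and 632 CPM with CIX in 4T1, with 0.98 ± 0.24 (SE, adjusted p = 0.01), which did not pass. In 67NR it was at -0.22 ± 0.13 (SE, adjusted p = 0.28). Pcna, the sliding clamp of replication, lay at 488, 451, 366 and 404 CPM with vehicle and 267, 201, 207 and 239 CPM with CIX in 4T1 and at 452, 419.8, 448 and 325 CPM and 288, 209, 206 and 200.4 CPM in 67NR, where the change was -0.89 ± 0.14 (SE, adjusted p = 0.004). The 95% interval of its difference between the lines was -0.46 to 0.39. Cdkn1a (p21), the CDK inhibitor, lay at 135, 60.4, 52.3 and 72.0 CPM with vehicle and 43.5, 18.9, 17.7 and 19.5 CPM with CIX in 4T1, with -1.71 ± 0.36 (SE, adjusted p = 0.0045). In 67NR its change was 0.048 ± 0.10 (SE, adjusted p = 0.77). Vehicle sample 3 and CIX sample 4 were the highest of their groups for Cdkn1a, and the part of this in the lower member levels of CIX sample 4 was not tested.

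**Figure D4:**
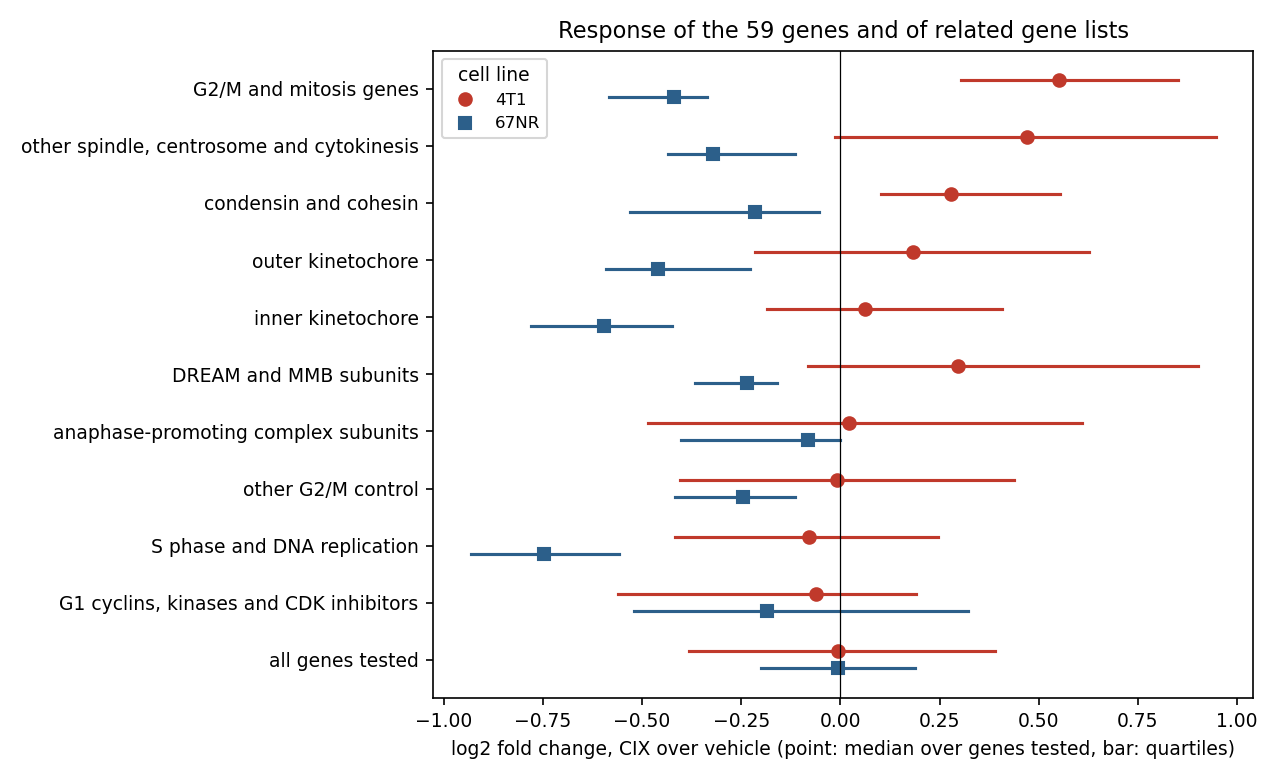
Median (point) and quartiles (bar) of the log2 fold change of CIX over vehicle (x axis) in 4T1 (red circles) and 67NR cells (blue squares) for the 59 genes, 9 related gene lists and all genes tested (y axis). The 59 genes have the highest median of the lists in 4T1, 0.55, and the S phase list the lowest in 67NR, -0.75.

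The sequence around the transcription start was not itself used to choose the members. Genes of this program are known to act through the CHR, as described above, so that its share among the members is not independent of their choice. RefSeq (GRCm38.p6) gave 53 promoters of 300 bases, from 250 before to 50 after a start, for 49 of the 59 members, and the other 10 had no entry. The core of the CHR was searched as TTTGAA on either strand, and the box of the activator NF-Y as CCAAT on either strand, which can overlap the CHR core by 1 base. The CHR core was found in 36 of the 53 promoters (67.9%), in 17.9% of all 32851 RefSeq mouse promoters of this length, in 11.9% of the 11971 promoters of genes tested here, and in 8 of the 53 promoters of the S phase list (15.1%). Within 60 bases before and 40 after the start it began in 33 member promoters (62.3%), against 5.28% of all promoters and 3.10% of those of genes tested. CCAAT was found in 39 member promoters (73.6%) and in 37.4% of all, and in 26 (49.1%) at least 2 times, against 11.7% of all. In the S phase list these shares were 54.7% and 35.9%. The member promoters with both motifs were 29 (54.7%), against 6.95% of all promoters. A match of letters is not a bound site, and promoters of a gene with several starts overlap.

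**Figure D5:**
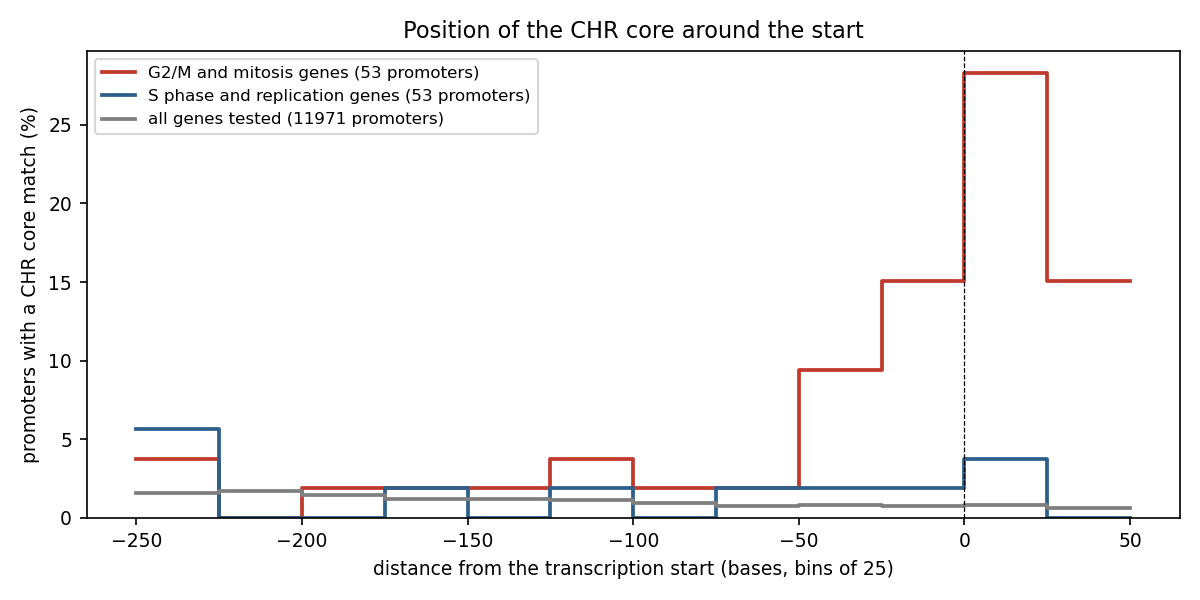
Share of promoters (y axis, %) in which a match to the CHR core begins in each bin of 25 bases from 250 bases before to 50 after the transcription start (x axis), for the members (red), the S phase list (blue) and all genes tested (grey). The members rise to 28.3% in the first 25 bases after the start, where the other sets stay under 4%.

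To show the element in its setting, 30 bases around it are given for 9 of the 10 members with the largest changes among the 17 that were called in 4T1 or in the difference between the lines and held it near the start. Bases run 5′ to 3′ in the direction of the gene, and the capitals mark the CHR core, which reads TTTGAA in 6 of them and TTCAAA, its reverse complement, in 3.
Iqgap3, chr3:88082020-88082049, plus strand: agcggcgggagaTTCAAAactggcaggaga
Plk1, chr7:122159453-122159482, plus strand: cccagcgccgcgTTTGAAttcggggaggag
Cenpf, chr1:189688067-189688096, minus strand: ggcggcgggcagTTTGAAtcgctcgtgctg
Ube2c, chr2:164769888-164769917, plus strand: ggagggttgcaaTTCAAAcgcgggcggcgg
Spc25, chr2:69206172-69206201, minus strand: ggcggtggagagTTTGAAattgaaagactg
Prc1, chr7:80294434-80294463, plus strand: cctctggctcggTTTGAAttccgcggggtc
Kif15, chr9:122951050-122951079, plus strand: tggggcgccaaaTTCAAAtctgcggccatc
Racgap1, chr15:99651634-99651663, minus strand: ctggtgcgtgatTTTGAAccggatctggcg
Kif18b, chr11:102925104-102925133, minus strand: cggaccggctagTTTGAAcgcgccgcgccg

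The core began 19 bases before the start in Iqgap3 and Kif15, 29 before it in Ube2c, and 5 or 30 before the 2 listed starts of Prc1. It began 3 bases after the start in Cenpf, 4 in Kif18b, 6 in Racgap1, 25 in Spc25 and 31 in Plk1, within the transcript. The spacing to CCAAT is shown by 2 members whose 120 bases before the start hold no annotated exon of the same strand, with both motifs in capitals.
Ckap2l, chr2:129297213-129297332, minus strand: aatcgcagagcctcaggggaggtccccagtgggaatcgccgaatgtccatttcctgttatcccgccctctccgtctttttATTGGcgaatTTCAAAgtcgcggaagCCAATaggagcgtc
Kif11, chr19:37376262-37376381, plus strand: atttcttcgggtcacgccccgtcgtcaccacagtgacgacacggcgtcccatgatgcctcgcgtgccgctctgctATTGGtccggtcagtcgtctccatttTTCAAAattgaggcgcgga

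In Ckap2l, a protein of the spindle poles, the CHR core began 30 bases before the start between a CCAAT box at 40 and another at 14 bases before it. In Kif11 it began 19 bases before the start with a CCAAT box at 45. The 33 members with the CHR core in a promoter had a median log2 fold change of 0.54 in 4T1, -0.40 in 67NR and 1.04 for the difference, and the 16 members with a promoter entry but without it 0.29, -0.48 and 0.91. Cdc25b, which rose in 4T1, had no CHR core in its promoter and a CCAAT box 28 bases before the start.

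Some members share sequence with other genes, so that their reads could be split by the quantification. Of the 31-base words of their transcripts, 31.7% occurred also in another gene for Cks2, 27.7% for Ccnb1, 25.5% for Cdc20, 21.0% for Mybl2, 17.3% for Cks1b, 14.8% for Plk1 and 13.0% for Pbk, and under 8% for each of the other members. The values of these genes are less certain than those of the rest, and the part of such reads in a change was not tested.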

How the data were processed

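RNA-seq was performed on 16 samples, 4 biological replicates in each of 4 groups, which were assigned from the sample labels. The authors quantified the reads with Salmon (version 0.12 in the submitters' processing notes) against Ensembl GRCm38 transcripts, and the deposited values are estimated counts per gene, not normalized and mostly not whole. Whether they were scaled by transcript length is not given in the sources used here, which bears on the TPM values, their order and the filter below. Counts were rounded for the tests. Of 33072 genes, 32911 were matched to the GENCODE annotation of GRCm38, which gave symbols, positions and the lengths behind TPM. A gene was left out of a comparison if over 3 of its samples had under 1 TPM, and all 59 members passed in each comparison. Each comparison was fitted with limma-voom (limma 3.58.1, TMM factors from edgeR 4.0.16, R 4.3.3), with two-sided p-values, and the call needed a p below 0.001 after Benjamini-Hochberg adjustment, as in the study. The calls did not reproduce those of the study. The paper reports more changed genes in 4T1 than the 1087 called here. It lists Ccnb2, Incenp, Cdca8 and Kif18b among them, which were not called in 4T1 here. The reason was not tested. The difference of the CIX responses was tested as an interaction over all 16 samples. Alternatives were edgeR's quasi-likelihood test, DESeq2 1.42.0, 2 other scalings, no filter, an adjusted p below 0.05, all samples in 1 fit, and leaving out each sample. The scripts were tested on simulated data. Promoters were taken from RefSeq, and the bases around the element of 1 member are not reported here.

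The members, the related lists and the tests were chosen with earlier results of these data known, so that none of them is independent support for a direction. Values in each sample are given for called members (at most the 8 furthest in each direction in each CIX comparison, the 6 largest differences between the lines, and 6 in each direction between vehicle treated lines) and for Ccnb1, Cdk1, Plk1, Aurka, Foxm1 and Top2a. Of each related list at most 2 called genes per comparison were named, and Mki67, Cdkn1a and Pcna in any case. The remaining members are named with an estimate or within a range, and Mybl2 and Mad2l1 with sample values chosen after their values were seen.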

Additional observations from a re-analysis of the deposited data

Results flagged for a closer look

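In groups of 4 samples, the highest or lowest value of a named member stood far from the other 3 by Dixon's criterion in 5 of the 84 groups examined, where chance alone would give about 4.2. Bub1 was at 45.6 CPM in vehicle sample 9 of 67NR, with the others at 30.5 to 32.0 CPM. Foxm1 was at 150.4 CPM in CIX sample 4 of 4T1, with the others at 186 to 188 CPM. Vehicle sample 13 of 67NR stood apart in 3 genes, at 167 CPM for Iqgap3 (others 127 to 129.8), 67.8 CPM for Kif2c (others 77.5 to 78.1) and 502 CPM for Prc1 (others 319 to 345).

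The response to CIX differed between 4T1 and 67NR, by limma-voom's test of the difference itself, in 30 members, all higher in 4T1, where 4.80% of all genes were. The largest differences of the log2 fold changes (4T1 minus 67NR, Benjamini-Hochberg adjusted p in parentheses) were 2.62 for Pbk (2e-06), 2.53 for Iqgap3 (3.8e-07), 1.88 for Birc5 (1.8e-06), 1.82 for Ccna2 (5.7e-06), 1.75 for Bub1b (4e-05) and 1.70 for Plk1 (8.2e-06).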

How the results depend on the processing

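The number of members called in 4T1 cells moved with the method, while no alternative called a member as lower. It was 13 by limma-voom, 28 by DESeq2, 26 with all 16 samples in 1 fit, 40 at an adjusted p below 0.05, and 5 to 21 when 1 sample was left out. Calls over all genes moved likewise, from 1087 to 3095 by DESeq2 and 2680 with all samples in 1 fit. In 67NR the number of lower members was 0 by limma-voom, 24 by DESeq2, 4 with all samples in 1 fit and 38 at an adjusted p below 0.05, where all genes went from 45 to 1041 by DESeq2 and 151 in 1 fit. For the difference between the lines 30 members were higher in 4T1, and 49 at an adjusted p below 0.05, where 606 and 1908 of the 12613 genes tested were. Between vehicle treated lines 15 members were higher in 4T1, 24 at an adjusted p below 0.05, and 9 to 13 when 1 sample was left out. Of all 11044 genes tested 2256 were higher, and 3683 at an adjusted p below 0.05. Calls over all genes in either direction, 4419 with all samples, were 3495 to 4366 when 1 sample was left out. The cause of these shifts, other than the looser threshold or the missing sample, was not tested. The median log2 fold change of the members kept its sign in every alternative, at 0.48 to 0.67 in 4T1, -0.48 to -0.36 in 67NR and 0.97 to 1.18 for the difference. The estimate of Cdc25b in 67NR, -0.00048, changed sign to 0.0011 with DESeq2, 0.0025 with its size factors, 0.0181 without the filter and 0.021 with all samples in 1 fit, and ranged from -0.026 to 0.0384 when 1 sample was left out. Of 978 refits of single genes, 899 kept direction and call, 41 lost the call, 30 gained it and 8 changed sign. With TTTAAA and TTCGAA added to the CHR core, the share of member promoters with a match rose from 67.9% to 84.9%. No 2 groups share a replicate number in the labels. The title numbers run in 4 sets with 1 sample of each group, and a replicate block by these sets, chosen after seeing the data, gave 13 members in 4T1, 0 in 67NR and 26 for the difference, while between vehicle treated lines 7 were higher and 7 lower in 4T1, not 15 and 11. Under this block the calls over all genes went from 1087 to 1145 in 4T1 and from 45 to 0 in 67NR. They went from 992 to 1093 for the difference and from 4419 to 3007 between vehicle treated lines. Deviations from the group means correlated at r = 0.051 to 0.41 within sets in 4T1, and at -0.27 to 0.21 between samples of different sets. The values were -0.048 to 0.10 within and -0.087 to 0.096 between sets in 67NR. Between the vehicle samples of the lines they were -0.27 to 0.26 within and -0.32 to 0.44 between sets. In 4T1 every value within a set was thus above 0. The labels name no pairs, so that the main fits hold no block, and the part of the sets in the results was not tested further. Every value rests on 4 cultures per group of 1 line each.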
